A study of Mus musculus with 12 samples.

Results

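The family of miR-10, miR-99, miR-100 and miR-125 was measured in mouse hearts as 7 mature miRNAs, chosen by name from the 1881 miRNAs on the array: mmu-miR-10a-5p, mmu-miR-10b-5p, mmu-miR-99a-5p, mmu-miR-99b-5p, mmu-miR-100-5p, mmu-miR-125a-5p and mmu-miR-125b-5p. MiRNA arrays covered 12 hearts of male C57BL6/J mice aged 5 months, with 3 different mice in each of 4 groups. Control mice (C) had neither STZ nor pargyline. The protocol names vehicle for the mice not given pargyline. D mice had type 1 diabetes, induced over 5 days by daily doses of 50 mg/kg of streptozotocin (STZ), which is toxic to the beta cells of the pancreas. C + P and D + P mice also received daily doses of 50 mg/kg of pargyline, an inhibitor of monoamine oxidases (MAO), over 12 weeks. The comparisons ask what diabetes does to these miRNAs in the heart and whether MAO inhibition alters it. STZ models a loss of insulin-producing cells, and pargyline was given to whole animals, so neither acts on the heart alone. The samples are labelled heart muscle, and 5 of 6 cardiomyocyte markers were detected on all arrays (miR-208b-3p on 0 of 12). The extraction protocol of the labels speaks of macrophages, and its RNA amount differs from that in the methods, which was not resolved here.

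MiRNAs are short RNAs that pair with target mRNAs, mainly through a stretch near their 5′ end called the seed, and lower the output of those mRNAs. MiR-10, miR-99 and miR-100 are close relatives in sequence, and miR-125 is related to the worm miRNA lin-4. MiR-10a and miR-10b lie in the Hox clusters, whose genes set position along the body axis. MiR-99, miR-100 and miR-125 lie in clusters with let-7 miRNAs, which mark differentiated cells, and such a cluster is copied onto several chromosomes. MiR-125 is known in heart and muscle as well as in blood cells, and miR-99 and miR-100 are known to target components of the mTOR pathway.

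The sequences are shown because the 7 members fall into 3 seeds that cut across the clusters. They are from RefSeq (GRCm38.p6), with all 7 matched by name, and capitals mark the seed (bases 2 to 8).
mmu-miR-10a-5p: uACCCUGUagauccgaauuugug
mmu-miR-10b-5p: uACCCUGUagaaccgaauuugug
mmu-miR-99a-5p: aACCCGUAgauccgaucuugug
mmu-miR-99b-5p: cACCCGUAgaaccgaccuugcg
mmu-miR-100-5p: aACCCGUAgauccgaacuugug
mmu-miR-125a-5p: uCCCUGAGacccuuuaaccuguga
mmu-miR-125b-5p: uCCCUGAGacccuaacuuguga
MiR-10a and miR-10b differed by U12A alone, and miR-99a and miR-100 by U16A alone, with positions counted from the 5′ end and the first-named base first. MiR-99a and miR-99b differed by A1C, U11A, U16C and U21C. MiR-125a and miR-125b were identical over their first 13 bases. Probes for such near-identical miRNAs may take up each other's signal, so the levels of these pairs are not fully separate.

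In GRCm38.p6 all members lie on the plus strand. MiR-10a-5p is at chr11:96317186-96317208, within the span of Hoxb3 and next to Hoxb4. MiR-10b-5p is at chr2:74726074-74726096, within the spans of Hoxd3 and Hoxd4. MiR-100-5p at chr9:41531437-41531458 and a first copy of miR-125b-5p at chr9:41581940-41581961 lie in the long non-coding RNA gene Mir100hg, with let-7a-2 between them. MiR-99a-5p at chr16:77598940-77598961 and the second copy of miR-125b-5p at chr16:77646279-77646300 flank let-7c-1. MiR-99b-5p at chr17:17830194-17830215 and miR-125a-5p at chr17:17830817-17830840 lie in Spaca6, with let-7e between them. The mature miR-125b-5p of both copies is the same sequence, so the array cannot tell them apart.

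The arrays differed in brightness, and this touches every result on the dimmer members. Each C array had 144 to 163 detected miRNAs, and the arrays of the other groups had 165 to 253. The C arrays were also the lowest in brightness, with summed signals of 27107 to 35028, and the next was D + P replicate 1 with 39661, against 48104 to 89040 on the other 8 arrays. Slide 1 carried both groups without pargyline and slide 2 both groups with it, so these factors cannot be told apart in a direct comparison. Diabetic mice were always on array row 2 and the others on row 1, so row and diabetes cannot be told apart either.

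MiR-10a-5p was detected on 8 of 12 arrays. All 3 C arrays lacked it. Its scanner signal was 11.5, 12.9 and 5.83 units in D, and 9.35, 12.5 and 23.9 in C + P. In D + P it was not detected in replicate 1 and reached 5.89 and 11.03 in the others. Every D and C + P array thus had miR-10a-5p and no C array did, while D + P was divided. The 4 arrays without it were the 4 dimmest of the 12. The same pattern of detection over the 12 arrays was shared by 14 miRNAs, miR-10a-5p included. The part of array brightness in this pattern was not tested.

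MiR-10b-5p was detected on 7 of 12 arrays, at 3.41 to 6.49 times its scanner error. None of the 3 C arrays had it. It measured 5.34, 4.99 and 4.05 units in D. In C + P it was not detected in replicate 1 and reached 8.79 and 10.2. In D + P it was not detected in replicate 1 and reached 3.49 and 7.69. D was thus the only group with miR-10b-5p on all 3 arrays, at low and close signals.

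MiR-99b-5p, which shares its cluster with let-7e and miR-125a, was detected on 11 of 12 arrays. In C it measured 3.83 and 4.03 units and was not detected in replicate 3. It measured 9.56, 8.75 and 13.4 in C + P, 11.7, 8.38 and 8.99 in D, and 7.94, 10.1 and 10.85 in D + P. Each array outside C was above each C array. In D + P replicate 1 the other 6 members were undetected or no higher than the highest C array, while miR-99b-5p was at 7.94.

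MiR-125a-5p was detected on all arrays and had the widest fold range among the 4 such members. It measured 5.33, 4.48 and 5.39 units in C. The values were 15.4, 17.3 and 27.0 in C + P and 19.3, 15.9 and 16.6 in D. In D + P they were 4.62, 13.1 and 19.04. C did not overlap with C + P or D, while D + P reached from the level of C to that of D.

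MiR-125b-5p, with the same seed, measured 180.1, 144 and 184.5 units in C. It measured 359.6, 409 and 580.2 in C + P and 465, 403 and 345 in D. In D + P it measured 131, 324 and 419. The order of the groups was that of miR-125a-5p, and D + P replicate 1 was below every other array.

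MiR-100-5p measured 27.4, 18.8 and 28.5 units in C, 44.5, 52.8 and 87.6 in C + P, 51.8, 50.3 and 35.5 in D, and 21.85, 43.9 and 52.9 in D + P. MiR-99a-5p, which differs from it by the single base given above, measured 99.7, 87.5 and 105 in C, 150, 169.8 and 284 in C + P, 202, 182.5 and 149 in D, and 93.5, 164 and 197 in D + P. For both, C lay below C + P and D with no overlap, and D + P replicate 1 lay within the range of C.

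**Figure D1:**
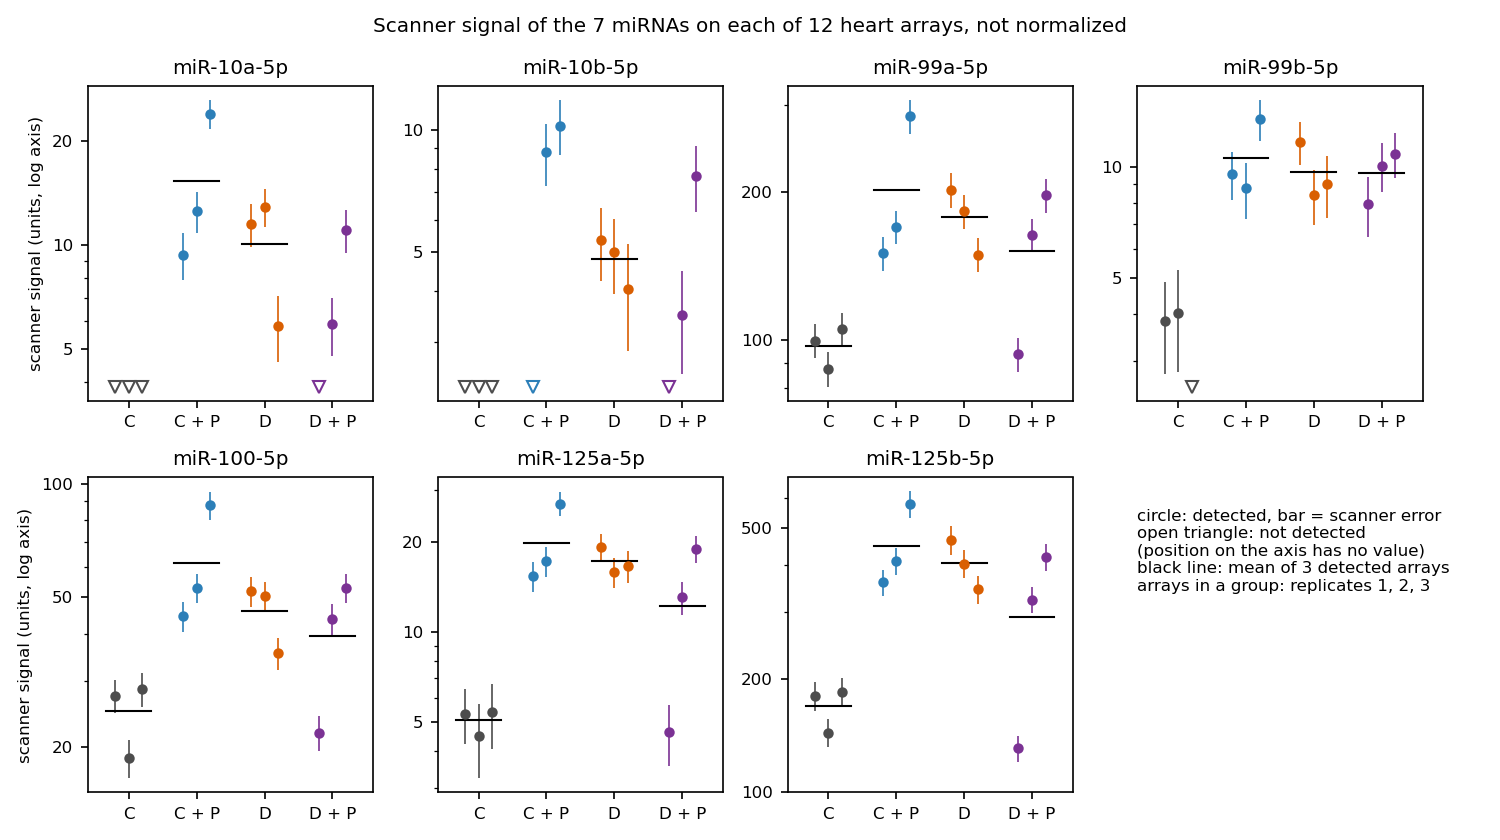
Scanner signal in units on a log axis for each of the 7 miRNAs on 12 arrays, without normalization, with the scanner's error as bars and open triangles for arrays where the miRNA was not detected. MiR-10a-5p and miR-10b-5p were not detected on any C array, and the other 5 members were lower on each C array where they were detected than on all C + P and D arrays. The C arrays were also the dimmest, with the median of 128 miRNAs higher on the log2 scale by 0.77 in D and 1.15 in C + P.

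These signals include the brightness of each array. The share of all miRNAs whose signals did not overlap with C was not counted, so the lack of overlap says nothing particular to the members. Before normalization the log2 change in D against C was 0.86 for miR-99a-5p, 0.89 for miR-100-5p, 1.25 for miR-125b-5p and 1.77 for miR-125a-5p, while the median of the 128 miRNAs detected on all 12 arrays was 0.77. In C + P against C the same members changed by 0.99, 1.27, 1.39 and 1.93, beside a median of 1.15. Most of the difference in signal of miR-99a-5p and miR-100-5p was therefore shared with the array as a whole. All changes below are on the log2 scale after cyclic loess normalization, which brings the arrays to a common level, and are relative to the average miRNA.

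**Figure D2:**
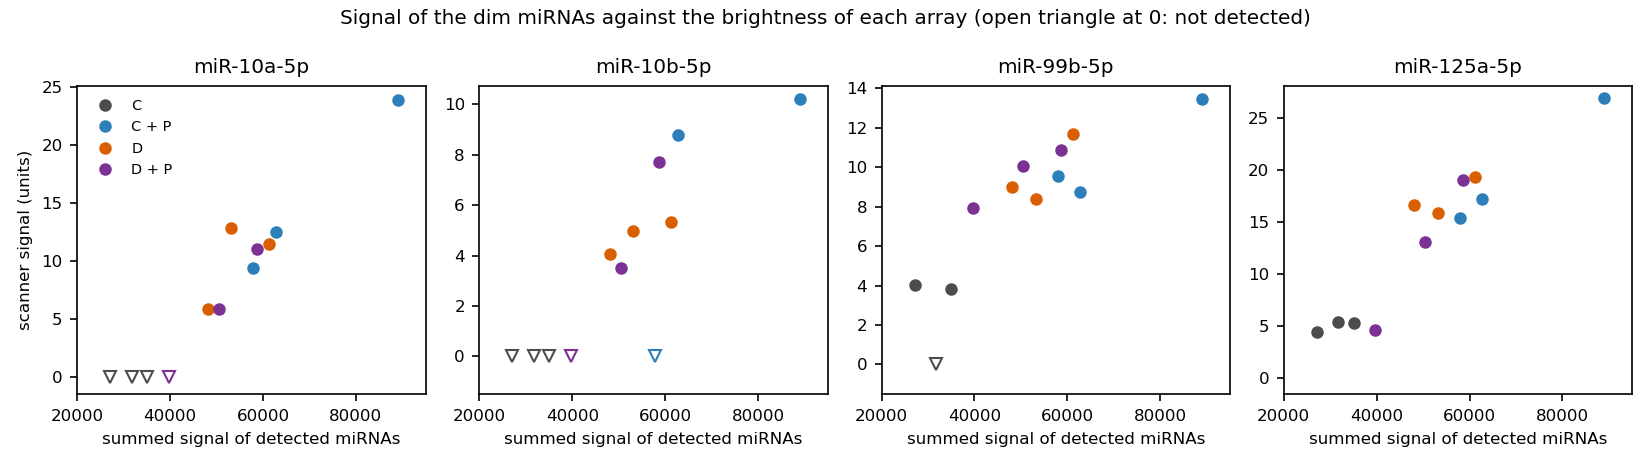
Scanner signal in units of 4 dim members against the summed signal of all detected miRNAs on each of 12 arrays, with arrays where the miRNA was not detected drawn as open triangles at 0. The 4 arrays without miR-10a-5p were the 4 dimmest, and miR-99b-5p was at 7.94 on the brightest of these.

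In D against C, miR-125a-5p rose 2.6-fold, and miR-99a-5p, the most even member, changed by 0.09. The normalized log2 level of miR-125a-5p was 2.85 ± 0.1 (SD, n = 3) in C against 4.22 ± 0.14 in D, which differed by 1.38 (SE 0.313, adjusted p = 0.00728 by limma). With the 128 changes ordered from the largest rise to the largest fall, this one ranked 4. MiR-125b-5p changed by 0.35 (SE 0.152, adjusted p = 0.0703), from 8.06 ± 0.06 to 8.42 ± 0.05. MiR-100-5p changed by 0.23 (adjusted p = 0.237), and miR-99a-5p went from 7.19 ± 0.03 to 7.28 ± 0.02 (adjusted p = 0.486). So 1 of the 4 members passed the test, beside 50% of the 128 miRNAs, which were divided into 31 higher and 33 lower. The median change of the 4 was 0.29, beside 0.02 for all 128. In these bulk samples, fewer cells of a type and less RNA per cell cannot be told apart.

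The change of miR-125a-5p depended on whose processed values were used. The authors' normalized intensities of miR-125a-5p were 7.84, 26.2 and 11 in C and 18.8, 7.54 and 15.2 in D, which overlapped. They gave a change of -0.02 (adjusted p = 0.965 by limma). That table was not centred here, and its array medians were 23.8, 31.4 and 26.4 in C and 24.2, 19.4 and 19 in D. The value of -0.02 is therefore not relative to the average miRNA. With the mean signal of the array's control features as a covariate the change was 0.51 (adjusted p = 0.522). These control features averaged 10.29 to 10.56 on the log2 scale in C and 11.07 to 11.21 in D. The call on miR-125a-5p was also lost with no filter on detection. It was kept in 21 of 24 alternatives.

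The 3 members with undetected arrays were taken from a wider fit of 209 miRNAs, in which the lowest detected signal on an array stood in for any undetected one. MiR-10a-5p and miR-10b-5p entered this fit only through groups that detected them on every array, and C is at the stand-in signal on all its arrays. Their changes against C are therefore given as values with no test. In D against C the level of miR-10a-5p was 2.98-fold and that of miR-10b-5p 1.74-fold that of the lowest detected signals of the C arrays. These folds hold for this normalization only, and the true level on the C arrays may be above that signal. MiR-99b-5p rose by 0.84 (SE 0.276, adjusted p = 0.0316), from 2.37 ± 0.63 (SD, n = 3, with 1 array set as above) to 3.21 ± 0.15. MiR-125a-5p itself rose less in the wider fit, by 0.9 (1.86-fold, adjusted p = 0.0244 by limma), against 1.38 above. In the wider fit 46.9% of the 209 passed. MiR-99b-5p entered it through C + P, D and D + P and not through C, so its call against C is no support for a rise. The call on miR-99b-5p was lost in 10 of 20 alternatives, and without C replicate 3 the change was 0.5 (adjusted p = 0.138). The authors' normalized intensities of miR-99b-5p were 9.48, 58.4 and 1.83 in C, the last on the array without detection, and 4.29, 5.39 and 8.41 in D, which overlapped.

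**Figure D3:**
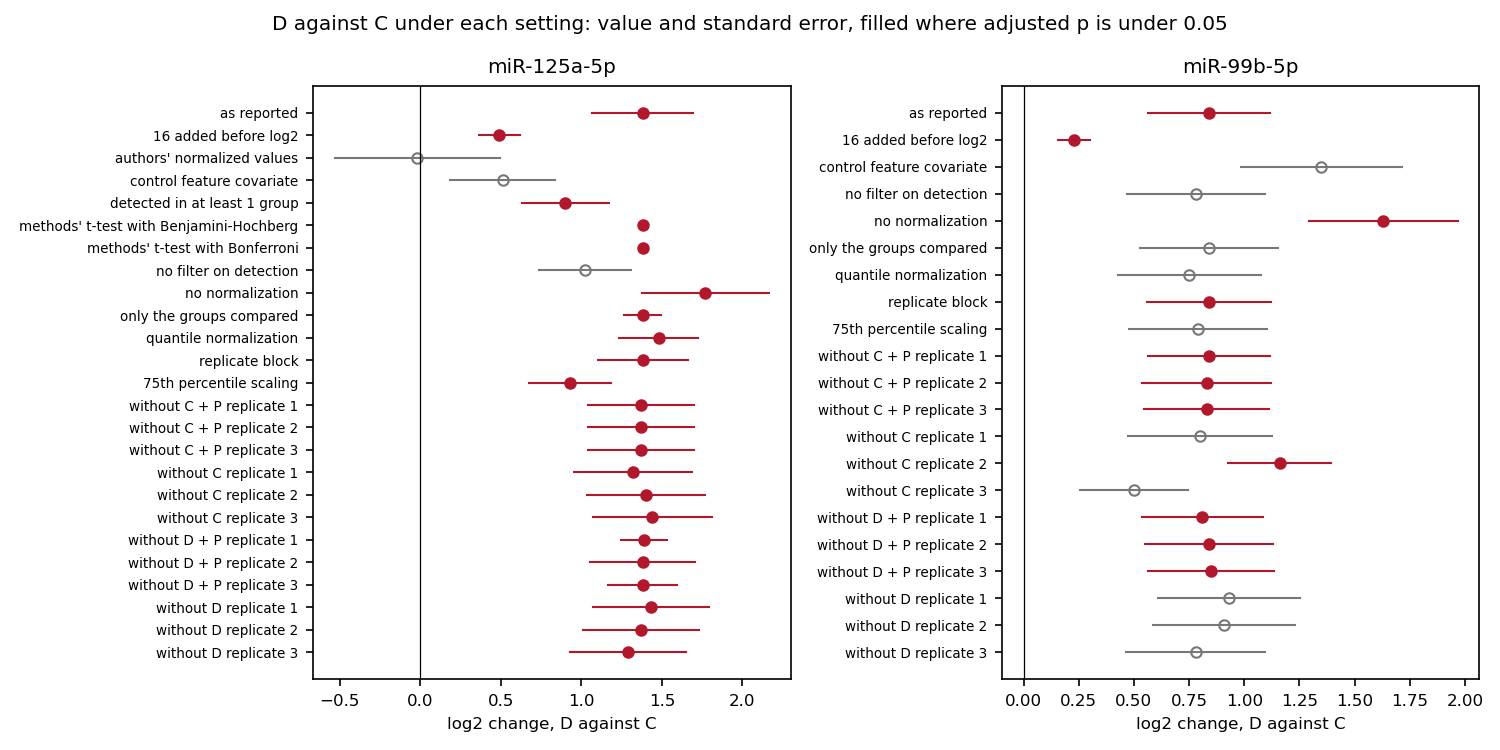
Log2 change in D against C with its standard error for miR-125a-5p and miR-99b-5p, each as reported and under every other processing tried. MiR-125a-5p ranged from -0.02 to 1.77 and miR-99b-5p from 0.23 to 1.63.

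In C + P against C, miR-125a-5p rose by 0.93 (adjusted p = 0.0368 by limma), a 1.91-fold difference, from 2.85 ± 0.1 to 3.78 ± 0.02 (SD, n = 3). MiR-100-5p changed by 0.24, miR-125b-5p by 0.2 and miR-99a-5p by -0.08, with adjusted p between 0.246 and 0.508. So 1 of 4 passed, beside 36.7% of the 128, with a median of 0.22 for the 4 and -0.04 for all. In the wider fit, where 18.2% of the 209 passed, miR-99b-5p changed by 0.23 (adjusted p = 0.561). MiR-10a-5p in C + P was 2.5-fold the lowest detected signals of C, given with no test as above. The call on miR-125a-5p was lost when any 1 of the C or C + P arrays was left out, with adjusted p of 0.0793 to 0.102. In the wider fit miR-125a-5p itself changed by 0.51 (adjusted p = 0.172).

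In D + P against D, miR-125a-5p fell by 1.07 on the log2 scale (adjusted p = 0.0216 by limma), to 3.16 ± 0.87 (SD, n = 3). MiR-125b-5p changed by -0.35 (adjusted p = 0.0651), to 8.06 ± 0.32, miR-100-5p by -0.28 (adjusted p = 0.145) and miR-99a-5p by -0.14 (adjusted p = 0.243). Hence 1 of 4 passed, beside 53.9% of the 128, with a median of -0.32 for the 4 and -0.09 for all. In the wider fit, with the array that lacked it at the stand-in signal, miR-10a-5p fell by 1.4 (adjusted p = 0.0244), while miR-10b-5p changed by -1 (adjusted p = 0.128) and miR-99b-5p by -0.34 (adjusted p = 0.291). Here 1 of 3 passed, beside 47.8% of the 209. MiR-10a-5p was in the fit through D and C + P, its high groups, so its count is no support for a fall. MiR-10b-5p was in the fit through D alone, so its value is no support for a fall either.

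D + P replicate 1 carried a large share of these differences. Without it, miR-125a-5p fell by 0.63 (adjusted p = 0.0285), and the change of miR-10a-5p was -0.84 (adjusted p = 0.0694). The call on miR-125a-5p was lost in 9 of 24 alternatives. Among them were the fit without D replicate 2, at -1.06 (adjusted p = 0.0701), and arrays scaled to their 75th percentile, at -0.45 (adjusted p = 0.162). Others were the authors' values, the control feature covariate, no filter on detection, no normalization, only the groups compared and the methods' t-test. The D arrays serve both in D against C and here, and the C arrays both in D against C and under pargyline alone, so these comparisons are not independent.

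In D + P against C + P, 0 of 4 members passed, beside 13.3% of the 128, and at an unadjusted p under 0.05 the count was also 0. MiR-125a-5p changed by -0.63 (adjusted p = 0.14 by limma), miR-100-5p by -0.29, miR-125b-5p by -0.2 and miR-99a-5p by 0.03. The median of the 4 was -0.25, beside 0.02 for all. In the wider fit 0 of 3 passed, beside 5.74% of the 209, with 1 at an unadjusted p under 0.05. That member, miR-10a-5p, was in the fit through D and C + P, its high groups, so this is no support for a fall. MiR-10a-5p changed by -1.15 (adjusted p = 0.0975), miR-10b-5p by -0.02 and miR-99b-5p by 0.28. Without D + P replicate 1 the change was -0.2 (adjusted p = 0.43) for miR-125a-5p, -0.14 (adjusted p = 0.549) for miR-100-5p, -0.01 (adjusted p = 0.941) for miR-125b-5p and -0.64 (adjusted p = 0.288) for miR-10a-5p.

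The interaction asks whether the response to pargyline differed between diabetic and control hearts, and an additive effect of slide or array row cancels in it. It was the change in D + P against D minus that in C + P against C. Array brightness need not cancel, since the dimmest arrays were those of C and D + P replicate 1. Before normalization the median interaction of the 128 was -1.17, with -2.65 for miR-125a-5p and -2.01 for miR-125b-5p. The part of brightness was not tested. After normalization the interaction of miR-125a-5p was -2 (SE 0.443, adjusted p = 0.00353 by limma), and that of miR-125b-5p was -0.55 (SE 0.216, adjusted p = 0.036). MiR-100-5p had -0.52 (adjusted p = 0.0589) and miR-99a-5p -0.05 (adjusted p = 0.748). With 2 of 4 passing, beside 70.3% of the 128, the members' median was -0.54 and that of all miRNAs -0.08. In the wider fit, where 58.9% of the 209 passed, miR-99b-5p had -0.57 (adjusted p = 0.217). Without D + P replicate 1 the values were -1.59 (adjusted p = 0.000685) for miR-125a-5p and -0.34 (adjusted p = 0.0491) for miR-125b-5p. On the authors' normalized intensities, not centred here, neither miR-125a-5p, at -0.79 (adjusted p = 0.364), nor miR-125b-5p, at -0.41 (adjusted p = 0.171), passed.

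**Figure D4:**
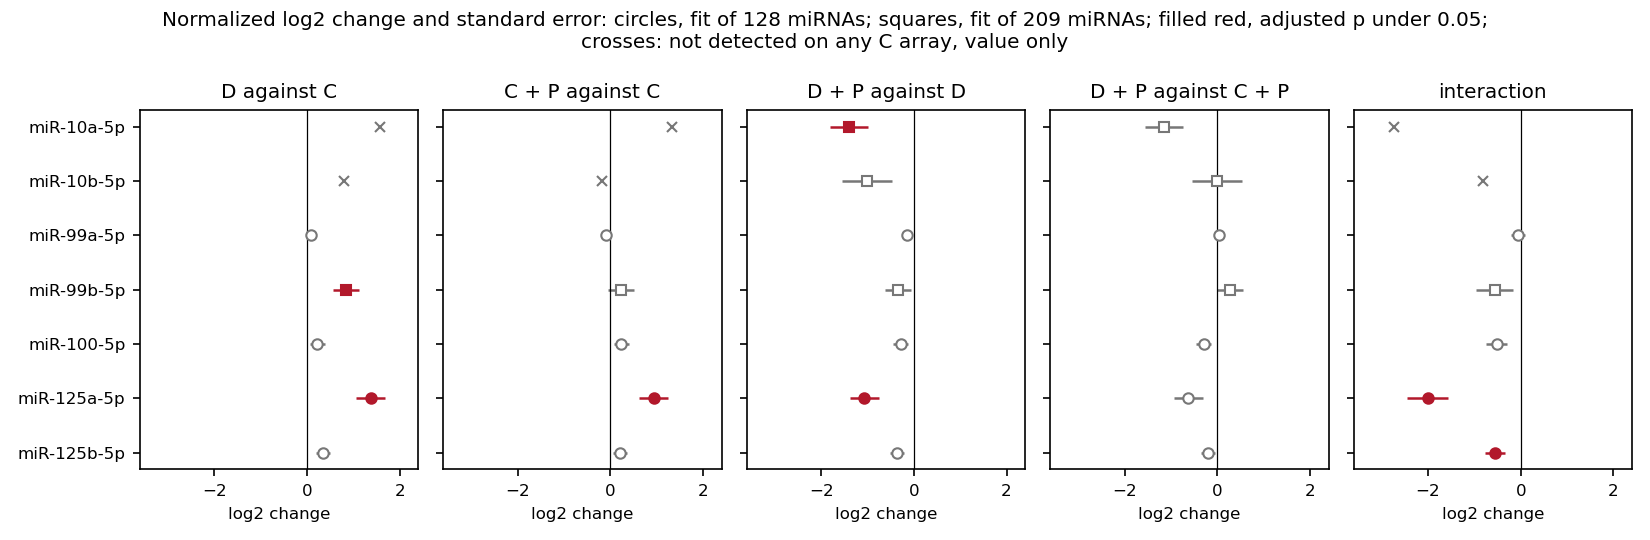
Normalized log2 change with its standard error for the 7 members in 5 comparisons, with circles for the fit of 128 miRNAs, squares for that of 209, filled red symbols where the adjusted p was under 0.05 and crosses for values with no test. MiR-125a-5p passed in 4 of the comparisons and miR-99a-5p and miR-100-5p in 0.

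The Hox-cluster members could not be tested against the let-7-linked members in D against C, since miR-10a-5p and miR-10b-5p were not detected on any C array. Of the 5 let-7-linked members, miR-125a-5p and miR-99b-5p passed, beside 50% of the 128 and 46.9% of the 209. The call on miR-99b-5p is no support, as given above. Whether members differed from each other in their response was not tested in these fits. The 2 that passed are from the miR-99b/let-7e/miR-125a cluster, while miR-99a-5p, miR-100-5p and miR-125b-5p lie in the other clusters. MiR-125b-5p was at adjusted p = 0.0703 by limma, and a difference between clusters was not tested.

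Ratios of members on the same array cancel a scale that all miRNAs of the array share, but not an effect that depends on signal level. Such ratios show unequal change only. They are given here relative to the mean ratio of the C arrays. MiR-125a-5p over miR-125b-5p was 0.974 to 1.04 in C and 1.31 to 1.61 in D. It was 1.41 to 1.55 in C + P and 1.18 to 1.52 in D + P, so each array outside C was above each C array, D + P replicate 1 included. The lowest ratio outside C, 1.18, was on D + P replicate 1, the dimmest array outside C. The part of brightness in this ratio was not tested. MiR-125b-5p over miR-99a-5p, a pair from the let-7c cluster, was 0.944 to 1.04 in C and 1.27 to 1.34 in D, while C + P had 1.17 to 1.39 and D + P 0.806 to 1.23. MiR-125a-5p over miR-99b-5p was 0.888 and 1.11 on the C arrays with both, 1.32 to 1.51 in D, 1.29 to 1.61 in C + P and 0.465 to 1.4 in D + P. MiR-100-5p over miR-99a-5p was 0.845 to 1.09 in C and 0.939 to 1.09 in D, which overlapped.

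Of the 4 ratios compared in D against C, miR-125a-5p over miR-125b-5p differed by 0.52 on the log2 scale and miR-125b-5p over miR-99a-5p by 0.39, each with p = 0.1 (exact permutation test, two-sided, adjusted p = 0.2). With 3 arrays against 3, 0.1 is the smallest p this exact test allows. MiR-125a-5p over miR-99b-5p differed by 0.53 (exact p = 0.2, the smallest for 3 against 2, adjusted p = 0.267) and miR-100-5p over miR-99a-5p by 0.03 (exact p = 0.9, adjusted p = 0.9). None of the 4 ratios passed the correction. All but miR-100-5p over miR-99a-5p did not overlap between C and D, so this is not particular to the 2 members with the seed CCCUGAG. The share of other pairs of miRNAs without overlap was not counted.

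**Figure D5:**
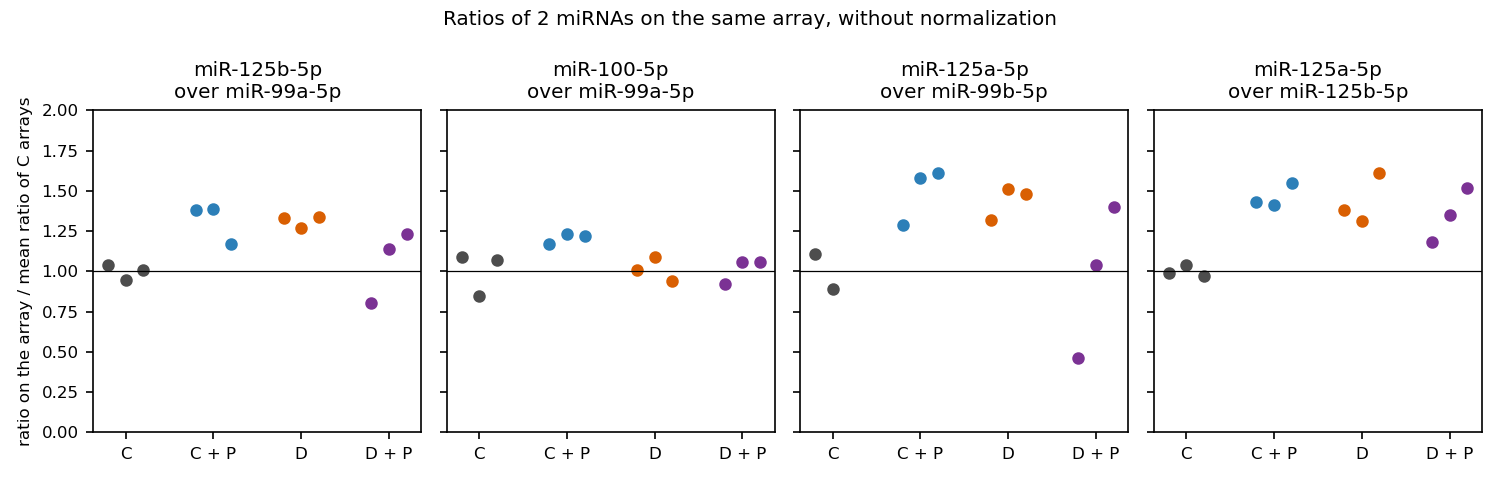
Ratio of the scanner signals of a pair of members on the same array, divided by the mean ratio of the C arrays, for 4 pairs and each array in the 4 groups. MiR-125a-5p over miR-125b-5p was above all C arrays on each array of the other groups, at 1.18 to 1.61, while miR-100-5p over miR-99a-5p overlapped between C and D.

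The let-7 partners of the same clusters were set beside the members. Let-7a-5p, which also has other genomic copies, rose in D against C by 0.63 (adjusted p = 0.0418 by limma) and fell in D + P against D by 0.79 (adjusted p = 0.0216). Let-7c-5p, the partner of miR-99a, changed by 0.2 (adjusted p = 0.383) in D against C and fell by 0.63 (adjusted p = 0.0222) in D + P against D. Let-7e-5p, which lies between miR-99b and miR-125a and was detected on 11 arrays, rose by 1.96 in D against C (adjusted p = 0.0201) and fell by 1.62 in D + P against D (adjusted p = 0.0375) in the wider fit. So 2 of the 3 partners rose in D against C, where 50% of the 128 and 46.9% of the 209 passed. In D + P against D 3 of 3 fell, where 53.9% and 47.8% passed. Let-7e-5p entered the wider fit through C + P, D and D + P and not through C, so its call against C is no support for a rise. Let-7 members differ by few bases, so their probes may share signal.

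The opposite strands of the same hairpins were near the limit of the array. Of 11 passenger strands, which are the arms usually degraded, 10 were not detected on any array. MiR-125a-3p was detected on 4 arrays, 2 in C + P and 2 in D + P, at up to 3.7 units. The other miRNAs of the Hox clusters, miR-196a-5p, miR-196b-5p, miR-615-3p and miR-615-5p, were detected on 0 of 12 arrays, so the miR-10 members were the only Hox-cluster miRNAs of this list with signal in these hearts. The seed CCCUGAG is also carried by miR-351-5p, miR-6367 and miR-6394, which were on the array and detected on 0 arrays.

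Some markers of several cell types moved in D against C in the same direction as miR-125a-5p, and others did not. Of 5 leukocyte markers, all detected on some arrays, C arrays had a summed signal of 12.2 to 25.8, C + P arrays 78.4 to 147, D arrays 38.4 to 60.2 and D + P arrays 10.4 to 60.8. Of the 2 among them in the fit of 128, miR-223-3p rose in D against C by 1.03 (adjusted p = 0.0276 by limma), and miR-142a-3p changed by 0.58 (adjusted p = 0.237). Both fell in D + P against D, by 1.3 and 1.09. In the wider fit miR-150-5p changed by 0.67, miR-155-5p by 0.56 and miR-142a-5p by -0.06 in D against C. These values are given with no test, since each was undetected on some C arrays. Of 3 fibroblast markers, with sums of 28.8 to 31.1 (C), 73.9 to 164 (C + P), 65.2 to 97.9 (D) and 29.5 to 87.4 (D + P) units, both in the fit rose in D against C, miR-199a-3p by 0.91 and miR-199a-5p by 0.65. These sums are not normalized, and the cardiomyocyte sums differed in the same way, with 3555 to 4403 (C), 9706 to 17650 (C + P), 7772 to 11920 (D) and 3140 to 10020 (D + P) units. Of the 5 cardiomyocyte markers in the fit, miR-1a-3p rose by 1.32 and miR-208a-3p fell by 0.78 in D against C, with a median of 0.02. MiR-1a-3p also rose by 1.48 in C + P against C and fell by 0.71 in D + P against D. Of the 3 red cell markers, miR-144-3p fell in D against C by 0.57 and rose in D + P against D by 0.47. The others passed in neither of these comparisons. The summed signal of the 3 red cell markers was 499 to 508 (C), 766 to 1525 (C + P), 760.3 to 965 (D) and 366 to 899.6 (D + P) units. Of the smooth muscle markers in the fit, miR-143-3p rose by 0.47 in D against C and miR-145a-5p changed by 0.38 (adjusted p = 0.0898). The endothelial marker miR-126a-3p changed by 0.2 (adjusted p = 0.171). MiR-126a-5p, not detected on any C array, was higher in D by 1.53 against the stand-in signal, given with no test. The part of other cells in the changes of the members was not tested.

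Among miRNAs detected on all arrays, the nearest pattern to each member was sought as the smallest mean absolute difference of centred normalized log2 signal over the 12 arrays. MiR-99a-5p was nearest to the cardiomyocyte marker miR-133b-3p (0.074), miR-100-5p to miR-152-3p (0.092), miR-125b-5p to miR-30e-3p (0.084) and miR-125a-5p to miR-322-5p (0.174). Other members were not the nearest. MiR-100-5p and miR-125b-5p, which share a cluster, ranked 4 to each other among 127 (0.113). MiR-125b-5p ranked 21 for miR-99a-5p (0.151), with which it also shares a cluster, and 36 for miR-125a-5p (0.416). MiR-99a-5p also had the smallest pooled SD within groups of the 4 members, 0.041, beside 0.192 for miR-100-5p, 0.172 for miR-125b-5p, 0.445 for miR-125a-5p and a median of 0.237 over the 128.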

How the data were processed

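MiRNAs were measured on 1-colour Agilent arrays (miRBase 21 names), 1 per heart. The authors deposited the scanner intensity of each miRNA with its error and a detection flag (Feature Extraction 10.7.3.1), with 0.1 for a miRNA that was not detected, and a table of intensity values normalized by cyclic loess, which also holds values for members on arrays that did not detect them. Its centring is not given in the sources used here. For the 128 miRNAs detected on all 12 arrays, log2 signals were passed through cyclic loess with a span of 0.7 and 3 iterations (limma 3.58.1 in R 4.3.3). The 4 groups were fitted over all arrays with limma's lmFit and eBayes, with Benjamini-Hochberg adjustment over all miRNAs tested and a threshold of 0.05. Members outside this set came from a like fit of the 209 miRNAs that every array of some group detected. The fit was tested on simulated data. The text names all members, the related miRNAs of fixed lists and the nearest pattern to each member. The members and lists were chosen with earlier results of these data known. Alternatives were other normalizations, filters and tests, the authors' values, a replicate block, a control feature covariate and each array left out. For members outside the 128, no normalization, only the groups compared and the covariate were chosen after seeing the data. Replicate numbers do not pair the mice. Precision is limited by the number of arrays, and an intensity is not a number of molecules.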

Additional observations from a re-analysis of the deposited data

Results flagged for a closer look

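By limma's interaction term, the response to pargyline differed between diabetic and control hearts for miR-125a-5p and miR-125b-5p, 2 of 4 members, while 70.3% of the 128 miRNAs passed. The interaction on the log2 scale was -2 for miR-125a-5p and -0.55 for miR-125b-5p. It came to -2.72 for miR-10a-5p in the fit of 209, where 58.9% passed, but C was undetected on all 3 arrays there, so this is a value against stand-in signals and not a test. The call was lost in 14 of 21 alternatives for miR-125b-5p and in 3 of 21 for miR-125a-5p. The part of array brightness in this term was not tested.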

How the results depend on the processing

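Of 765 values of member changes under other processing, 633 kept their direction and their side of the threshold, 74 lost a call, 25 gained one, 30 changed sign without a call on either side and 3 with one. The last included miR-125a-5p in D against C on the authors' values, which were not centred here (-0.02). The others were miR-125a-5p in C + P against C with the control feature covariate (-0.02), and miR-99a-5p in C + P against C without normalization (0.99). Counts of calls among the 4 members detected on all arrays were 1 for D against C, another 1 under C + P against C, 1 with D + P against D, 0 in D + P against C + P and 2 in the interaction. All but D + P against C + P, which was 0 as before, became 0 on the authors' values, with the control feature covariate and with no filter on detection. At an unadjusted p under 0.05 by limma, these zeros were 0 to 3 of the 4 members. Without normalization the count was 4 under D against C, C + P had 4 against C and D + P had 0 against D, and the interaction had 4. With 16 added before the log2, C + P against C had 0, while D + P against D had 2 and D against C also 2. With detection required on every array of only 1 group, C + P against C had 0 and the interaction 1. Scaling to the 75th percentile gave 0 in D + P against D and 1 in the interaction. Quantile normalization gave 2 in D against C, and fitting only the groups compared gave 2 for D against C but 0 for D + P against D. The methods' t-test gave 2 for D against C but 0 for D + P against D with Benjamini-Hochberg adjustment, and 0 for each pargyline comparison within C or D with Bonferroni adjustment. With each array left out the counts ranged from 1 to 2, 0 to 1, 0 to 2, 0 to 1 and 1 to 3 over the 5 comparisons in the order first given.

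Among miR-10a-5p, miR-10b-5p and miR-99b-5p the counts were 2, 1, 1, 0 and 1. Those that involve C support nothing, since C lacked the first pair on every array and miR-99b-5p on 1. The call in D + P against D was on miR-10a-5p, in the fit through D and C + P, its high groups. It is no support for a fall either, and the same limits hold for each count below. The counts were 0 in the first 3 and in the interaction with the covariate and with no filter (0 to 2 at an unadjusted p under 0.05). Without normalization C + P against C had 2, D + P against D 0 and the interaction 2. Quantile normalization gave 1 in D against C, scaling to the 75th percentile 1 for D against C but 0 for D + P against D, and only the groups compared 0 in D + P against D. With each array left out the counts ranged from 0 to 2, 0 to 1, 0 to 2, 0 to 1 and 1 to 2. Replicate numbers only share a label, since each mouse is different, and deviations of same-numbered arrays correlated between -0.37 and 0.49. With the replicate block the interaction had 1 of the 4 members, C + P against C had 0 of the other 3, and the other counts moved by less than 1.5 times. Scaling to the 75th percentile of all miRNAs was not run, since that value is 0.1 on every array. The causes of these shifts were not tested.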
